A study of Mus musculus with 9 samples.

Results

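The 3 libraries described here are the day 0 cultures of C2C12, an established mouse myoblast line, out of 9 libraries in the series. They are 1 library each of an Fkbp5 knockdown, an Fkbp4 knockdown and a control, chosen by their time point label, and the same 3 genotypes were also sequenced at days 3 and 5 of differentiation. Cells were kept in 10% fetal bovine serum, seeded at day −2, and switched at day 0 to 1% insulin-transferrin-selenium. The labels do not say whether day 0 cells were collected before or after that switch, how the knockdowns were made, what the control received, or whether a line was 1 clone. Each knockdown was set against the control of the same day, over genes with at least 50 reads in the larger library of the pair, which left 9376 genes for the Fkbp5 knockdown and 9595 for the Fkbp4 knockdown. Both pairs use the same control library, so its own deviations enter both.

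Fkbp5 and Fkbp4 encode FKBP51 and FKBP52, immunophilins with a peptidyl-prolyl isomerase fold and a tetratricopeptide repeat domain that docks on Hsp90. Both are best known as co-chaperones of steroid receptors, where they have opposing effects on receptor maturation. In proliferating myoblasts, MyoD and Myf5 are present but held in check while cyclin-dependent kinases drive division. On withdrawal of serum, cells leave the cycle, switch on myogenin and then the genes of fusion and of the sarcomere.

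There was 1 library per genotype and day, so no difference at day 0 has a replicate check and none was tested. Values are reads and normalised CPM, which are counts over the library size after scaling by the trimmed mean of M values (TMM). A ratio is given as log2 of knockdown over control with an exact 95% interval, which covers counting error only. A gene is called higher or lower here where the ratio reached 2-fold. The one test available asks whether a knockdown effect at day 0 differed from the effect over days 3 and 5 (edgeR's quasi-likelihood test, Benjamini-Hochberg adjustment over 13372 genes). It has 2 residual degrees of freedom and uses the later days in place of replicates.

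Total counts were 3932372 in the Fkbp5 knockdown, 4823967 in the Fkbp4 knockdown and 4483183 in the control, and a gene with 0 reads may have reached 3 counts, or 0.622 to 0.763 CPM. Ribosomal protein genes took 10.2%, 7.29% and 8.71% of the reads in the same order, and mitochondrial genes 2.569%, 1.775% and 1.801%. The median log2 ratio of all genes was −0.01 in the Fkbp5 knockdown and 0.04 in the Fkbp4 knockdown. It varied with transcript length in opposite directions: over protein-coding genes that share little sequence, put into 4 equal bins by summed exon length, the medians ran 0.08, 0.01, −0.06 and −0.12 from the shortest to the longest bin in the Fkbp5 knockdown. For the Fkbp4 knockdown they ran −0.04, 0.04, 0.07 and 0.13. The part of transcript length in the results below was not tested.

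The label of a proliferating myoblast was checked against markers. The proliferation antigen Mki67 stood at 132 normalised CPM in the Fkbp5 knockdown, 185 in the Fkbp4 knockdown and 165 in the control, against 20.3 to 51.9 in the 6 later libraries. Top2a, the topoisomerase of dividing cells, stood at 339, 476 and 362 against 66.8 to 142 later, and Ccnb1, Cdk1, Mcm5 and Pcna were likewise higher in each day 0 library than in any later one. The myoblast genes Myod1 (67.6, 74.9 and 69.3 normalised CPM), Myf5 (44.3, 62.7 and 45.8) and Cdh15 (216, 302 and 258) were present, whereas the satellite cell factor Pax7 had 1, 1 and 6 reads. Of the marker lists of other cell types, 0 of 17 immune and 0 of 11 endothelial genes reached 50 reads in any day 0 library. Of other lists, 5 of 13 fibroblast, 5 of 11 smooth muscle and pericyte, 4 of 16 osteoblast and chondrocyte, 3 of 14 adipocyte and 2 of 15 epithelial and neural markers did. The osteoblast and chondrocyte list, with Spp1, Runx2, Sox9 and Phex past 50 reads, summed to 6503, 5783 and 8011 normalised CPM. The smooth muscle and pericyte list, with Acta2, Tagln, Smtn, Des and Cspg4 past 50 reads, summed to 1746, 1976 and 2243. Des is also a myoblast marker, so that sum is not particular to other cell types. The part of such cells or states in the results was not tested.

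Each target had fewer reads in its own knockdown than in the control. Fkbp5 had 17 reads in the Fkbp5 knockdown and 91 in the control, a log2 ratio of −2.17 (−3.01 to −1.41), or 4.50-fold lower; the Fkbp4 knockdown had 122 reads (0.28, −0.12 to 0.69). Fkbp4 had 300 reads in the Fkbp4 knockdown and 1089 in the control (−2.00, −2.19 to −1.81), while the Fkbp5 knockdown had 968 (0.08, −0.05 to 0.21). Ratios of the targets at days 3 and 5 were −1.21 and −1.68 for Fkbp5 and −2.40 and −2.52 for Fkbp4. At day 3 Fkbp5 was under the minimum of 50 reads in both libraries of its pair, so that ratio rests on few reads. On GRCm38, Fkbp5 (ENSMUSG00000024222) lies on the minus strand of chromosome 17 from 28399094 to 28517527, and Fkbp4 (ENSMUSG00000030357) on the minus strand of chromosome 6 from 128429735 to 128438677.

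In the Fkbp5 knockdown 65 genes were at least 2-fold higher (0.693% of those compared) and 103 at least 2-fold lower (1.1%). In the Fkbp4 knockdown 62 were higher (0.646%) and 62 lower (0.646%). Among genes that share little sequence with others, those just inside and just outside the 2-fold line in the Fkbp5 pair were Nadsyn1 (1.00) and Itgb7 (1.00) above, and Dtwd1 (−1.01) and Prkdc (−0.99) below. In the Fkbp4 pair they were BC030867 (1.00) and Nbea (0.98), and Slco4a1 (−1.01) and Fxyd5 (−0.998). At the read minimum, 45 genes of the Fkbp5 pair and 47 of the Fkbp4 pair had exactly 50 reads in the larger library, while 30 and 36 genes with 49 reads stayed out.

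Many of the widest ratios belonged to genes whose sequence occurs elsewhere in the transcriptome. Of the genes at least 2-fold different, 74 of the Fkbp5 pair and 68 of the Fkbp4 pair shared 20% or more of their 31-base words with transcripts of other genes. Genes sharing under 20% were 30 of 65 higher and 64 of 103 lower in the Fkbp5 pair, against 8149 of all 9376. In the Fkbp4 pair they were 32 of 62 higher and 24 of 62 lower, against 8328 of all 9595. Past 8-fold, 9 of 10 higher and 12 of 14 lower genes of the Fkbp5 pair were pseudogenes, as were 12 of 13 higher and 10 of 13 lower genes of the Fkbp4 pair. The share of pseudogenes among all genes compared is not given here. How the authors' counting treated reads that map to several places is not given in the sources used here. Among genes that share under 20% of their words, 30 were higher (0.368%) and 64 lower (0.785%) in the Fkbp5 knockdown, and 32 were higher (0.384%) and 24 lower (0.288%) in the Fkbp4 knockdown. The accounts of single genes below lead with these.

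**Figure D1:**
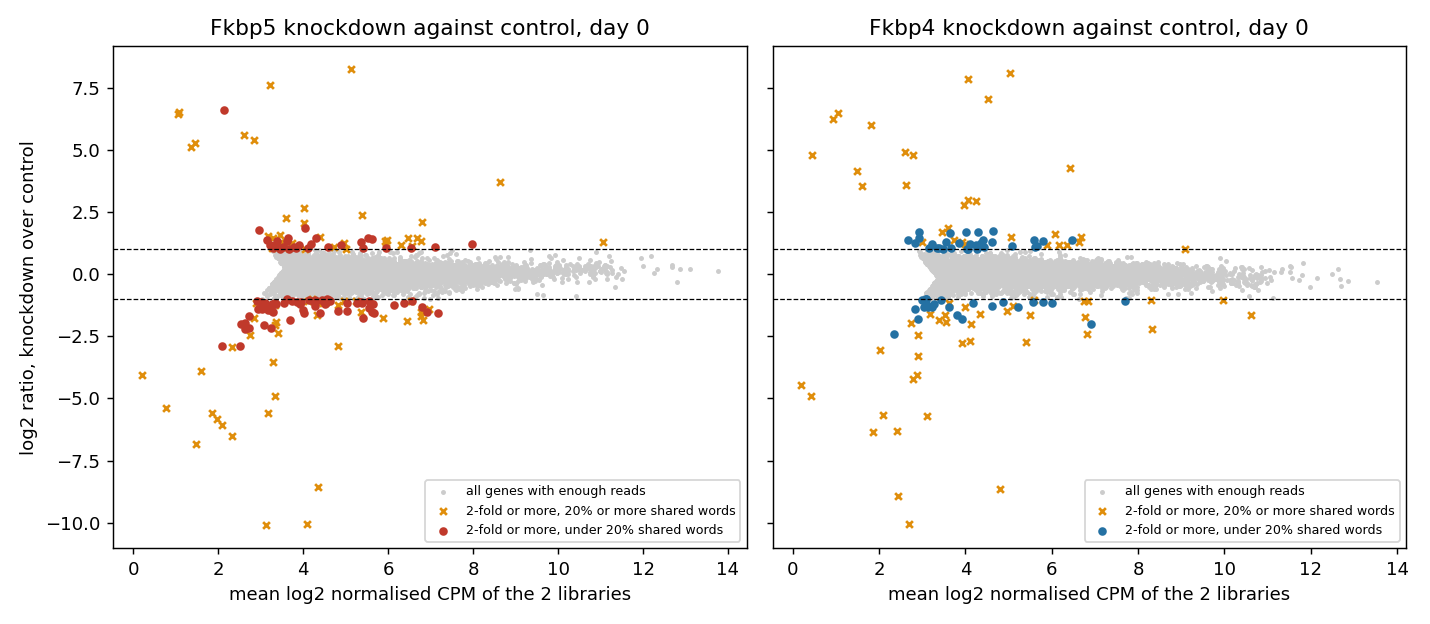
Each point is a gene with at least 50 reads in the larger library; the x axis is the mean log2 normalised CPM of both libraries and the y axis the log2 ratio of knockdown over control, with dashed lines at 2-fold. The widest ratios are mostly crosses, genes that share 20% or more of their 31-base words with other genes, while the filled points stay closer to the 2-fold lines.

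Some ratios were also computed with the reads of genes that share the sequence added. The cyclophilin Ppia, a peptidyl-prolyl isomerase of another family than the FKBPs, had 5492 reads in the Fkbp5 knockdown, 82 in the Fkbp4 knockdown and 498 in the control, that is log2 ratios of 3.71 and −2.74. With the reads of 14 genes that share its sequence added, the levels were 1487, 567 and 565 normalised CPM, and the ratios 1.396 and 0.01. Ribosomal protein gene Rps12 kept its difference on the same sum: 3316, 1418 and 1356 normalised CPM alone, and 3962, 1976 and 1935 with its copies. The chromatin protein gene Hmgn2 had 367, 29 and 181 reads, and the Fkbp4 ratio of −2.78 came to −0.67 with copies. For Gm2004 the Fkbp4 ratio of 4.16 came to 0.04, and for the microRNA gene Gm27529, with 0, 0 and 60 reads, the summed ratios were −0.08 and −0.81.

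Genes of early muscle differentiation had higher levels in the Fkbp4 knockdown. Of 35 genes of early differentiation and fusion, 25 had enough reads. Of these, 12 were at least 2-fold higher and 0 lower, where 0.646% of all genes were higher and 0.646% lower. The 25 members had a median log2 ratio of 0.79 against 0.04 over all genes. The counting interval lay above no difference for 20 of the 25 and below it for 1, where 18.5% and 14.7% of all genes did so. In the Fkbp5 knockdown 20 members had enough reads, with a median of −0.23 against −0.01 over all genes. Of the 20, 0 were 2-fold different, where 0.693% of all genes were higher and 1.1% lower. This list was drawn up with results of these libraries known and is described, not tested.

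The regulators of the programme were among the 12. Myog, the transcription factor that commits myoblasts to differentiation, had 43 reads in the Fkbp5 knockdown, 157 in the Fkbp4 knockdown and 67 in the control. Its Fkbp4 ratio was 1.09 (0.67 to 1.52) and its Fkbp5 ratio −0.39 (−0.98 to 0.19). Mymk, the membrane protein myomaker needed for fusion, had 39, 170 and 60 reads, for ratios of −0.37 (−0.99 to 0.23) and 1.36 (0.93 to 1.81). The upstream factors differed less: Myod1 had 258, 375 and 315 reads, with ratios of −0.04 (−0.28 to 0.21) and 0.11 (−0.11 to 0.33), and Myf5 had 169, 314 and 208 reads, with ratios of −0.05 (−0.35 to 0.25) and 0.45 (0.20 to 0.71). Over the list of myogenic transcription factors, the log2 ratio was above 0 in 16 of 16 members in the Fkbp4 knockdown (median 0.25) and in 2 of 15 in the Fkbp5 knockdown (median −0.23). Over all genes it was above 0 for 5390 of 9595 in the Fkbp4 pair and 4549 of 9376 in the Fkbp5 pair. The interval lay above no difference for 7 of the 16 in the Fkbp4 pair and below it for 6 of the 15 in the Fkbp5 pair.

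Structural genes of the first sarcomeres made up the rest. Embryonic myosin heavy chain Myh3 had 38 reads in the Fkbp5 knockdown, 228 in the Fkbp4 knockdown and 62 in the control, a Fkbp4 ratio of 1.74 (1.33 to 2.17), or 3.34-fold higher. The fast regulatory light chain Mylpf had 197, 726 and 250 reads (1.398, 1.19 to 1.61), and the light chain Myl1 180, 356 and 151 (1.10, 0.82 to 1.38). The 2 sarcomeric actins followed, with 27, 112 and 32 reads for cardiac Actc1 (1.67, 1.09 to 2.28) and 110, 440 and 159 for skeletal Acta1 (1.33, 1.06 to 1.60). For each of these genes the Fkbp4 knockdown held the most reads, and the interval of the Fkbp5 ratio included no difference except for Myl1 (0.50, 0.18 to 0.83).

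The troponin genes Tnnt3, Tnni1, Tnnc1 and Tnnt1, the calcium switch of the thin filament, had Fkbp4 ratios of 1.28, 1.18, 1.13 and 1.08, on 65 to 251 reads in that library. Mybph, a thick filament protein, had 15, 99 and 28 reads (1.68, 1.06 to 2.34) but shares 46.4% of its words. Outside the list, the sarcoplasmic reticulum genes Casq2, a calcium-binding store protein (21, 69 and 19 reads), and Srl, sarcalumenin (62, 146 and 41 reads), had ratios of 1.72 and 1.69. The M-band protein gene Myom2 had 34, 132 and 52 reads and a ratio of 1.20 (0.73 to 1.70).

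Some members of the list were not higher. Jam2, a junctional adhesion molecule, had 973 reads in the Fkbp5 knockdown, 912 in the Fkbp4 knockdown and 1224 in the control (−0.56, −0.69 to −0.44). Tnnt2, the cardiac and embryonic troponin T, had 264, 321 and 268 reads (0.12, −0.12 to 0.36). The acetylcholine receptor subunits Chrng and Chrnd stood between, with Fkbp4 ratios of 0.79 (0.22 to 1.38) and 0.78 (0.56 to 1.00).

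**Figure D2:**
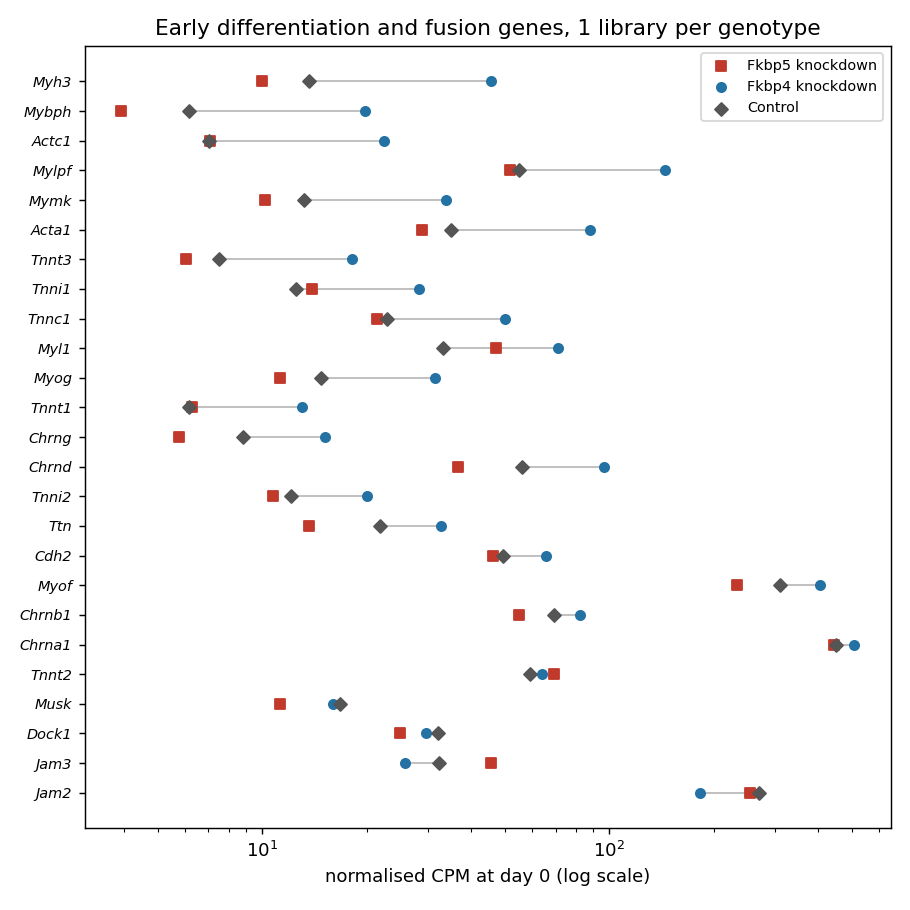
Levels of the 25 early differentiation and fusion genes with enough reads in the Fkbp4 pair, in normalised CPM on a log axis; squares are the Fkbp5 knockdown, circles the Fkbp4 knockdown and diamonds the control, 1 library each. The circles lie to the right of the diamonds for 21 genes and to the left for Musk, Dock1, Jam3 and Jam2.

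These levels are small beside those of differentiated cells. Myog stood at 11.3, 31.4 and 14.8 normalised CPM at day 0, against 152 to 357 in the 6 libraries of days 3 and 5. Myh3 stood at 9.95, 45.6 and 13.7, against 889 to 3804 later. In these bulk samples, a larger share of differentiating cells and more RNA per differentiating cell cannot be told apart. At days 3 and 5, when all 3 genotypes express the programme, 0 list members were 2-fold higher or lower in the Fkbp4 knockdown, with medians of 0.02 and 0.15. Over all genes 0.616% were higher and 1.17% lower at day 3, and 0.859% and 0.996% at day 5. The list medians in the Fkbp5 knockdown were −0.71 and −0.47, with 7 of 31 and 6 of 34 members lower, where 1.2% and 1.51% of all genes were.

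The test of day 0 against the later days called 0 of the 35 list members in the Fkbp4 knockdown. The lowest adjusted p of the list by edgeR's quasi-likelihood test was 0.409. For Myh3 the Fkbp4 effect at day 0 exceeded that of the later days by 1.41 on the log2 scale (SE 0.27, adjusted p = 0.409), for Acta1 by 1.35 (SE 0.25, 0.409) and for Mylpf by 1.46 (SE 0.28, 0.417). For Myog the difference was 1.20 (SE 0.48, adjusted p = 1.0). In the shortest bin by exon length, where the Fkbp4 median of all genes was −0.04, 13 list members had a median of 1.13 and 10 of the 12 at 2-fold. In the longer bins 5, 2 and 5 members had medians of 0.78, 0.59 and 0.38, where all genes had 0.04, 0.07 and 0.13.

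As lists, DNA replication and mitosis genes were not lower in the Fkbp4 library. Among 47 DNA replication genes the median ratio was 0.11, and among 56 mitosis genes 0.11, where all genes had 0.04. In the Fkbp5 knockdown the medians were −0.13 and −0.07, where all genes had −0.01. In both pairs 0 members of either list were 2-fold different. Of all genes compared, 0.646% were 2-fold higher and 0.646% lower in the Fkbp4 pair, and 0.693% and 1.1% in the Fkbp5 pair. Cyclin D1, Ccnd1, had 1026 reads in the Fkbp5 knockdown, 1726 in the Fkbp4 knockdown and 1154 in the control, with ratios of 0.08 (−0.04 to 0.20) and 0.44 (0.33 to 0.55). The CDK inhibitor Cdkn1a, which rises as myoblasts leave the cycle, had 706, 1191 and 830 reads, with ratios of 0.02 (−0.13 to 0.16) and 0.38 (0.25 to 0.51).

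The series title ties Fkbp5 to Cdk4, a kinase that phosphorylates the retinoblastoma protein in G1. Cdk4 mRNA had 2814 reads in the Fkbp5 knockdown, 3416 in the Fkbp4 knockdown and 2989 in the control, ratios of 0.16 (0.09 to 0.24) and 0.05 (−0.02 to 0.12). The related kinase Cdk6 had 126, 498 and 340 reads, ratios of −1.18 (−1.49 to −0.88) and 0.41 (0.21 to 0.61). Its Fkbp5 ratios at days 3 and 5 were −0.67 and −1.15. Of 28 regulators of G1 and S phase, Cdk6 and E2f2 were the 2 at least 2-fold lower in the Fkbp5 knockdown and 0 were higher. Among all genes compared in that pair, 1.1% were 2-fold lower and 0.693% higher. E2f2, a transcription factor that activates S phase genes, had 48, 206 and 138 reads, ratios of −1.27 (−1.78 to −0.79) and 0.44 (0.12 to 0.76), with Fkbp5 ratios of −0.71 and −0.86 at days 3 and 5. The Fkbp5 effect at day 0 minus that of the later days was −0.29 (SE 0.26) for Cdk6 and −0.49 (SE 0.28) for E2f2 (adjusted p = 0.962 for both by edgeR's quasi-likelihood test), which does not show that the effects were alike.

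Genes higher in the Fkbp5 knockdown at day 0 included Npr3, Cd34 and Col1a1. Npr3, the natriuretic peptide clearance receptor, had 120 reads in the Fkbp5 knockdown, 44 in the Fkbp4 knockdown and 39 in the control, a Fkbp5 ratio of 1.87 (1.34 to 2.43). Cd34, a sialomucin also found on quiescent satellite cells, had 292, 100 and 128 reads (1.44, 1.14 to 1.75). Col1a1, the alpha 1 chain of type I collagen, had 1453, 724 and 745 reads (1.21, 1.09 to 1.34). In all 3 genes the Fkbp5 knockdown held the most reads. The Fkbp4 ratio was 0.03 for Npr3, −0.18 for Col1a1 and −0.50 for Cd34, and the interval of Cd34 (−0.89 to −0.11) left out no difference.

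The small matrix proteoglycan decorin, Dcn, had 105, 64 and 54 reads (1.21, 0.72 to 1.71), and the fibril-associated collagen Col16a1 had 133, 88 and 74 (1.10, 0.68 to 1.53). Of 16 collagen genes, 13 were above 0 with a median of 0.38 in the Fkbp5 knockdown, 2 were 2-fold higher, and Col12a1 was 2-fold lower with 107, 240 and 275 reads (−1.11, −1.45 to −0.78). Of all genes compared in this pair, 4549 of 9376 were above 0, 0.693% were 2-fold higher and 1.1% lower. The collagen median of the Fkbp4 knockdown was −0.08. Of 37 other matrix genes, 1 was 2-fold higher and 0 lower in the Fkbp5 knockdown, with a median of 0.19. Other genes higher in the Fkbp5 knockdown were the Wnt antagonist Dkk2 (235, 186 and 135 reads, ratio 1.05), the secreted growth factor Ptn (340, 147 and 192, ratio 1.08), the cysteine protease Ctsh (125, 53 and 54, ratio 1.46) and the regulator of G-protein signalling Rgs17 (55, 17 and 19, ratio 1.78).

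Of 13 fibroblast markers 5 had enough reads, Col1a1, Col3a1, Dcn, Cd248 and Ly6a. Col1a1 and Dcn were the 2 at least 2-fold higher in the Fkbp5 knockdown, and all 5 ratios were above 0, from 0.17 to 1.21 with a median of 0.65. Their list summed to 2589 normalised CPM in the Fkbp5 knockdown, 1532 in the Fkbp4 knockdown and 1616 in the control. The part of a change in cell state or composition in these ratios was not tested. Of 10 MHC class I antigen presentation genes with enough reads, 9 were above 0 in the Fkbp5 knockdown (median 0.42, 0 at 2-fold), and the Fkbp4 median over 11 genes was −0.14. Among all genes compared in the Fkbp5 pair, 4549 of 9376 were above 0, 0.693% were at least 2-fold higher and 1.1% lower.

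Pdlim3, Actg2 and Tagln, which encode proteins of the actin and contractile apparatus, were among the genes lower in the Fkbp5 knockdown. Pdlim3, a PDZ and LIM domain protein of the Z-disc, had 89 reads in the Fkbp5 knockdown, 497 in the Fkbp4 knockdown and 357 in the control (−1.75, −2.11 to −1.42). Its ratios at days 3 and 5 were −0.39 and −0.38, and the effect at day 0 differed from that of the later days by −1.37 (SE 0.22, adjusted p = 0.218 by edgeR). Of the smooth muscle actins, Actg2 had 60, 147 and 158 reads (−1.15, −1.60 to −0.71), and Acta2 had 2111, 4460 and 4370 and did not reach 2-fold (−0.80, −0.88 to −0.72). Tagln, an actin-binding protein that shares 62.2% of its words, had 296, 723 and 920 (−1.39). Of the 5 smooth muscle and pericyte markers with enough reads, Tagln was the 1 at least 2-fold lower, 2 were above 0, and the median was −0.02. Of 24 focal adhesion, actin and contractile genes, 19 were below 0 (median −0.15) and 2 at least 2-fold lower in the Fkbp5 knockdown. In the Fkbp4 knockdown 5 were below 0 and 0 at 2-fold (median 0.16). Among all genes 4827 of 9376 and 4205 of 9595 were below 0, and 1.1% and 0.646% were at least 2-fold lower.

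Fos, Vdr and Mapk14 were also at least 2-fold lower in the Fkbp5 knockdown. The immediate early transcription factor Fos had 11 reads in the Fkbp5 knockdown, 28 in the Fkbp4 knockdown and 60 in the control, ratios of −2.20 (−3.27 to −1.26) and −1.24 (−1.94 to −0.57). Of 38 immediate early genes, 32 were below 0 in the Fkbp5 knockdown, with a median of −0.23. In the Fkbp4 knockdown 15 were below 0, with a median of 0.07. Of all genes compared, 4827 of 9376 and 4205 of 9595 were below 0 in these pairs. Fos was the 1 member at least 2-fold lower in each, where 1.1% and 0.646% of all genes were. The vitamin D receptor Vdr had 26, 84 and 111 reads (−1.84, −2.52 to −1.22) and stood at 0.46 and 0.19 at days 3 and 5. That difference between day 0 and the later days, −2.16 (SE 0.37), had an adjusted p of 0.258. Mapk14, the p38 alpha kinase that promotes myogenic differentiation, had 112, 389 and 345 reads (−1.37, −1.69 to −1.06) and remained at −1.09 and −0.90 later.

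A few genes lay on opposite sides of the control in the 2 knockdowns. The Wnt ligand Wnt7b had 19 reads in the Fkbp5 knockdown, 158 in the Fkbp4 knockdown and 60 in the control. Its ratios were −1.41 (−2.24 to −0.64) and 1.26 (0.82 to 1.71) at day 0, −1.38 and 2.01 at day 3, and −1.73 and 2.80 at day 5. At days 3 and 5 Wnt7b was under the minimum of 50 reads in each library, so its later ratios rest on few reads. The unconventional myosin Myo7b had 8, 192 and 71 reads (−2.90 and 1.30), and the cell adhesion molecule Nrcam 20, 177 and 50 (−1.07 and 1.68). Others lay on 1 side in both: Cck, the cholecystokinin precursor, had 6 and 11 reads against 53 in the control (−2.89 and −2.41). Such a gene rests on the shared control library, which alone held more than the minimum of reads.

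Ccl9, Sod3, Aspn and Lpl were among the genes lower in the Fkbp4 knockdown. Of the gene lists nearest to them, 1 of 38 matrix genes, 0 of 14 chemokine and cytokine genes and 2 of 35 antioxidant genes were at least 2-fold lower. Among all genes compared the share was 0.646%. The chemokine Ccl9 had 95 reads in the Fkbp5 knockdown, 41 in the Fkbp4 knockdown and 129 in the control, an Fkbp4 ratio of −1.79 (−2.34 to −1.28). The extracellular superoxide dismutase Sod3 had 58, 40 and 112 reads (−1.63, −2.18 to −1.09), and the small matrix proteoglycan asporin, Aspn, 43, 20 and 63 (−1.80, −2.60 to −1.05). Both stayed lower later, with Fkbp4 ratios at days 3 and 5 of −1.18 and −2.25 for Sod3 and −1.26 and −1.18 for Aspn. Lipoprotein lipase, Lpl, had 194, 118 and 270 reads (−1.33, −1.66 to −1.02).

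Among more abundant genes, Srp14, a subunit of the signal recognition particle, had 1171 reads in the Fkbp5 knockdown, 713 in the Fkbp4 knockdown and 1367 in the control (−1.08, −1.21 to −0.95). The glutathione transferase Mgst1 had 88, 79 and 174 reads (−1.28), and the autophagy protein gene Gabarapl2 271, 189 and 374 (−1.13). Across 81 cytoplasmic ribosomal protein genes the Fkbp4 median was −0.29, with 74 below 0. Across 77 nuclear-encoded oxidative phosphorylation genes it was −0.22, with 64 below 0, where 4205 of all 9595 genes were. The Fkbp5 medians of the same lists were 0.24 and 0.10. Of these genes, 70 and 61 fall in the shortest bin by exon length, where the Fkbp4 median of all genes was −0.04 and the Fkbp5 median 0.08.

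The 10 mitochondrially encoded mRNAs with enough reads were all above 0 in the Fkbp5 knockdown, with a median of 0.57 and 0 at 2-fold. Among all genes compared there, 4549 of 9376 were above 0. The cytochrome b gene mt-Cytb had 22955 reads in the Fkbp5 knockdown, 17698 in the Fkbp4 knockdown and 16473 in the control (0.73, 0.70 to 0.76), and mt-Nd1, of complex I, had 19066, 14557 and 14461 (0.65, 0.62 to 0.68). The Fkbp4 median was −0.07. The Hsp90 chaperone machinery, with which both targets work, had medians of 0.03 and 0.15 over 24 genes with 0 at 2-fold in either pair. Over 28 other FK506-binding proteins and cyclophilins the medians were 0.02 and −0.18. Ppia was the 1 gene at 2-fold in each pair, on its reads without those of genes that share its sequence. Of 22 genes of the glucocorticoid receptor and its targets, Fkbp5 itself was the 1 at 2-fold in the Fkbp5 knockdown and 0 were in the Fkbp4 knockdown. Of all genes compared, 0.693% were 2-fold higher and 1.1% lower in the Fkbp5 pair. In the Fkbp4 pair 0.646% were higher and 0.646% lower.

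**Figure D3:**
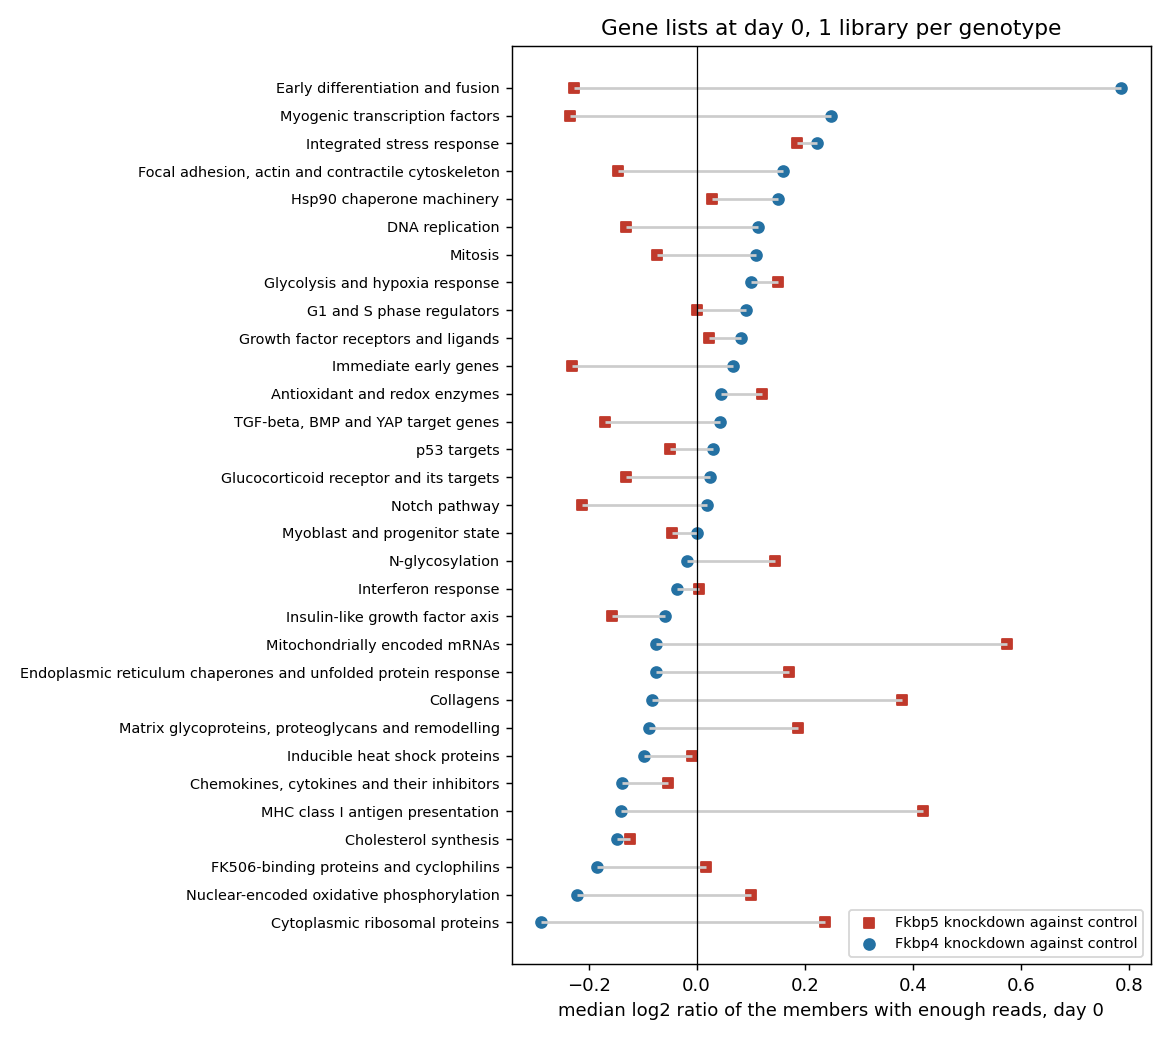
Median log2 ratio at day 0 of each gene list with 10 or more members that have enough reads; squares are the Fkbp5 knockdown against control and circles the Fkbp4 knockdown against control. The circle for early differentiation and fusion lies at 0.79, and the squares for mitochondrially encoded mRNAs, MHC class I and collagens lie at 0.57, 0.42 and 0.38.

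Genes at least 2-fold lower in the Fkbp5 knockdown at day 0 mostly had ratios below 0 at the later days, which did not choose them, and a smaller number reached 2-fold there. Of 63 genes that share under 20% of their words, leaving out Fkbp5, 52 had enough reads at day 3, and 47 of these were below 0 there and 16 at least 2-fold lower. At day 5 the counts were 52, 46 and 16. Over all such genes, 48.9% and 50.8% were below 0 and 0.518% and 0.588% were 2-fold lower. Rpn2, a subunit of the oligosaccharyltransferase, had ratios of −1.55, −1.88 and −1.77 at days 0, 3 and 5, the scramblase Ano6 −1.52, −1.23 and −1.44, and the transcriptional coactivator Wbp2 −1.55, −1.56 and −1.73. The SNARE protein Ykt6 had −1.32, −0.67 and −0.54.

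Of the 32 genes higher in the Fkbp4 knockdown, 24 had enough reads at day 3, where 13 were above 0 and 5 were 2-fold higher. At day 5 the counts were 24, 15 and 2. Over all such genes 52.4% and 49.6% were above 0 at these days, and 0.214% and 0.345% were 2-fold higher. Of the 23 genes lower in the Fkbp4 knockdown without the target, 14 of 14 were below 0 at day 3 and 13 of 15 at day 5, with 4 and 5 at least 2-fold lower (0.642% and 0.46% of all such genes). Of the 30 higher in the Fkbp5 knockdown, 15 of 18 and 15 of 17 were above 0, with 4 and 3 at 2-fold (0.556% and 0.496%). Of all such genes at days 3 and 5, 47.6% and 50.4% were below 0 in the Fkbp4 pair. In the Fkbp5 pair 51.1% and 49.2% were above 0.

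**Figure D4:**
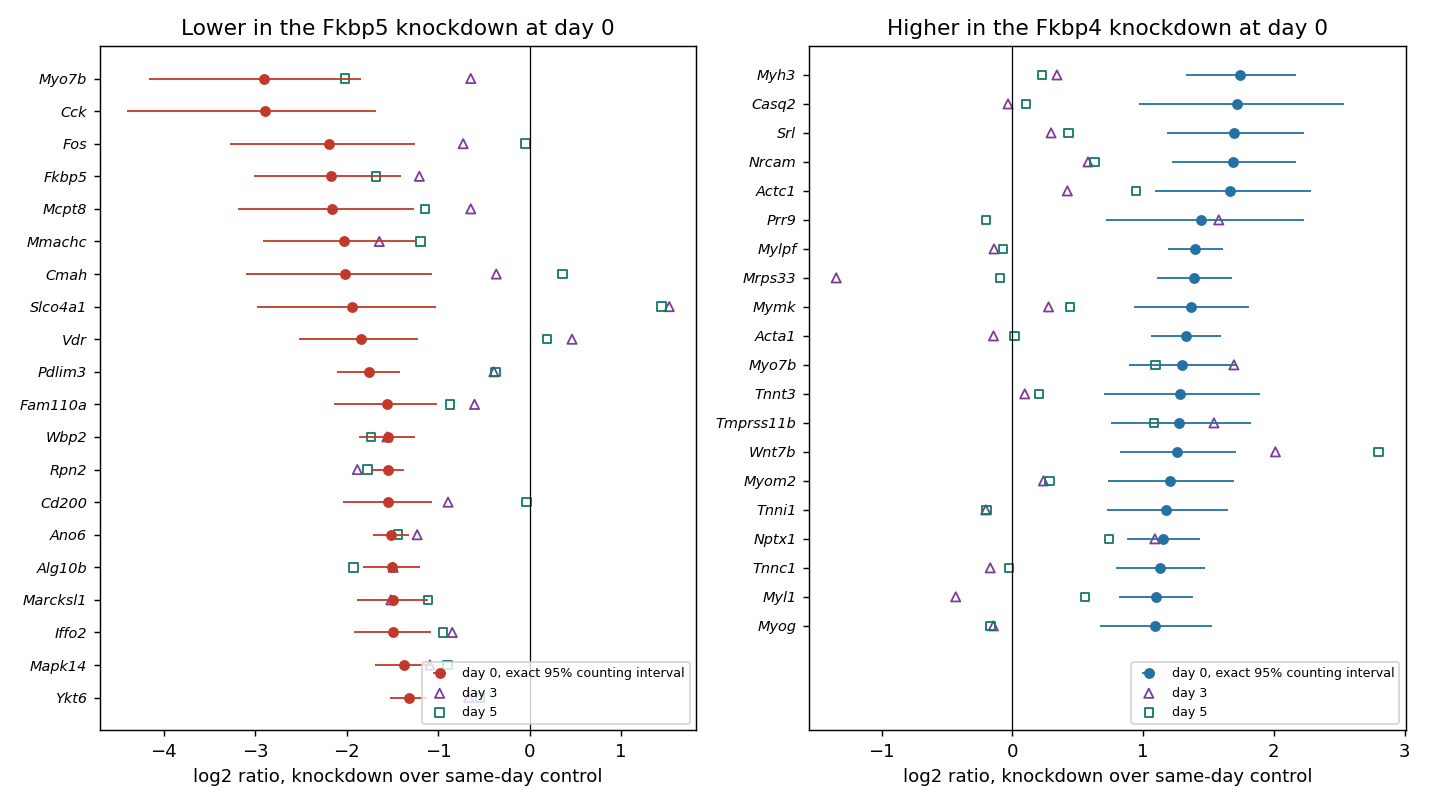
The 20 genes lower in the Fkbp5 knockdown (left) and the 20 higher in the Fkbp4 knockdown (right) with the clearest ratios among genes sharing under 20% of their words; circles with bars are the day 0 log2 ratio and its exact 95% counting interval, triangles day 3 and squares day 5. On the left Rpn2, Wbp2, Ano6 and Alg10b keep their ratio, and on the right the day 3 and day 5 marks of Mylpf, Acta1, Tnnc1, Tnni1 and Myog lie near 0.

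A part of the genes lower in the Fkbp5 knockdown share a feature of sequence. A 7-base word, read as DNA GTTCGTT, had been singled out in the 3′ UTRs of genes lower in the Fkbp5 knockdown over these same 9 libraries, so its values at day 0 are a description. The annotated 3′ UTRs of 428 of 21001 genes (2.04%) hold it, on the transcript strand. For 6 genes that were lower in the Fkbp5 knockdown, 1 site each is shown as 27 bases of the transcript strand. Alg10b and Cdk6 hold 2 copies of the word, of which 1 is shown. Sequences are from GENCODE M21 on GRCm38, 5′ to 3′, with the word in capitals.
Rpn2, plus strand, chr2:157325828-157325854: ggagatgcctGTTCGTTaaaaagagaa
Alg10b, plus strand, chr15:90231688-90231714: tgaaagcattGTTCGTTatccattgct
Wbp2, minus strand, chr11:116078719-116078745: aattgctcttGTTCGTTcctggtccag
Mapk14, plus strand, chr17:28748302-28748328: gaaaactgctGTTCGTTtgtatttgtg
Cdk6, plus strand, chr5:3520979-3521005: gcagctttatGTTCGTTtgtacacttg
Pdlim5, minus strand, chr3:142241740-142241766: tttctttttgGTTCGTTttagattgag

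Of 231 genes with the word and enough reads, 24 were at least 2-fold lower in the Fkbp5 knockdown at day 0 and 0 were higher, with a median ratio of −0.37. Of 8711 genes with a 3′ UTR and no such word, 56 were lower and 41 higher, with a median of −0.01. The 16 genes with 2 or more copies had a median of −0.58, with 5 at least 2-fold lower. In the Fkbp4 knockdown 234 genes with the word had a median of 0.05, as did 8909 without it (0.05), with 2 and 38 lower. Restricted to 3′ UTRs longer than 1000 bases, the Fkbp5 medians were −0.35 over 202 genes with the word and −0.05 over 4946 without.

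The 24 genes have varied functions. Alg10b, a glucosyltransferase of N-glycan assembly, had 112 reads in the Fkbp5 knockdown, 513 in the Fkbp4 knockdown and 379 in the control (−1.51, −1.83 to −1.20). Pdlim5, a Z-disc protein of the same family as Pdlim3, had 210 reads against 561 in the control (−1.17), and Arpc1a, of the actin-nucleating Arp2/3 complex, had 247 against 617 (−1.07). Cdk6 and Mapk14 are among the 24, whereas E2f2, Ano6 and Pdlim3 are not. They make up 24 of the 63 genes with an annotated 3′ UTR that were lower in the Fkbp5 knockdown and share under 20% of their words. At days 3 and 5 the Fkbp5 medians of genes with the word were −0.22 and −0.32. Among 1674 mature mouse microRNA sequences of RefSeq (GRCm38.p6), 0 have bases 2 to 8 complementary to it.

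**Figure D5:**
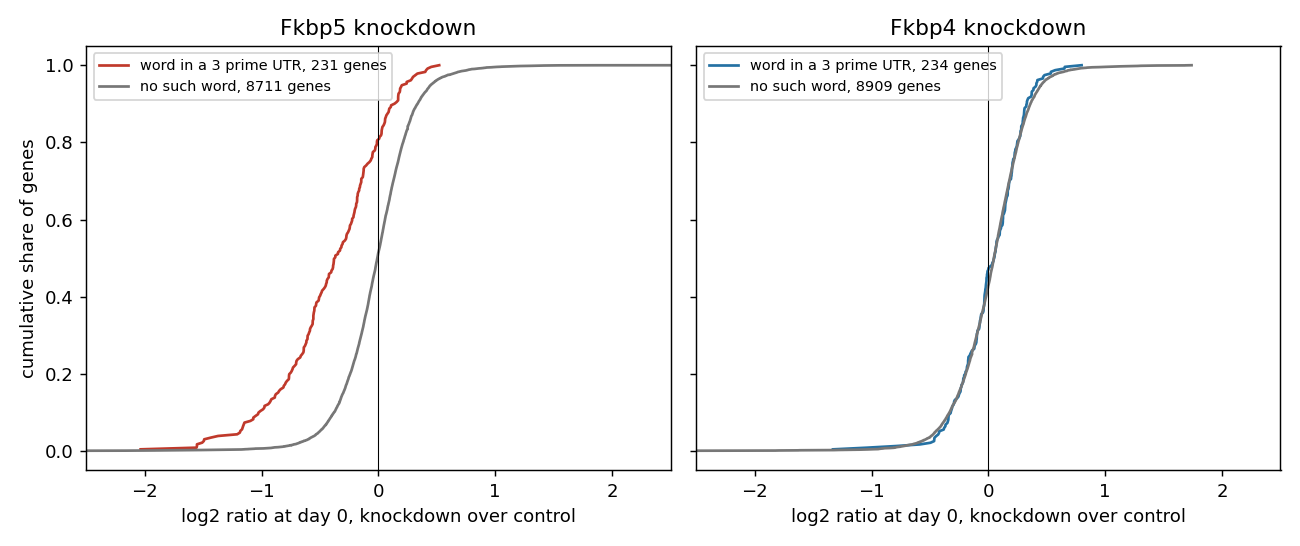
Cumulative share of genes by day 0 log2 ratio for genes with the 7-base word in an annotated 3′ UTR (coloured) and genes without it (grey), Fkbp5 knockdown on the left and Fkbp4 knockdown on the right. On the left the coloured line lies to the left of the grey one, with medians of −0.37 and −0.01, and on the right the lines overlap, both with a median of 0.05.

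The test of day 0 against the later days called 5 genes in each knockdown (0.0374% of 13372), and all 10 calls fell on genes that share 20% or more of their words. Among the 10982 genes that share under 20%, 0 were called. Unadjusted p-values under 0.05 were found for 438 of these genes (3.99%) in the Fkbp5 knockdown and 264 (2.4%) in the Fkbp4 knockdown. The lowest adjusted p by edgeR was 0.197 for Xirp2 in the Fkbp5 knockdown and 0.138 for Sprr1a in the Fkbp4 knockdown. Of the genes singled out by name above, Ppia was the 1 called, with a Fkbp5 effect 4.58 higher at day 0 than later (SE 0.46, adjusted p = 0.0217).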

How the data were processed

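The authors deposited read counts per gene for each library, without normalisation; the submitters' processing notes name featureCounts 1.4.6, Subread, HISAT2 2.0.2, CASAVA 1.8 and the build mm10. PolyA RNA was made into libraries with TruSeq RNA v2, per the labels' protocols, a kit that does not mark strand, so overlapping and antisense genes cannot be told apart. The annotation release and the treatment of reads with several alignments are not given in the sources used here. Of 47728 genes listed, 47309 were matched by identifier to GENCODE mouse M21.

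Counts were scaled by TMM over the 9 libraries (12844 genes, edgeR 4.0.16, R 4.3.3), and CPM were computed from them. Ratios of 2 counts have exact Clopper-Pearson 95% intervals from the conditional binomial, and a count of 0 was set to 3, so that its ratio is a bound. The day 0 test is a quasi-likelihood F test of (knockdown minus control at day 0) minus (knockdown minus control over days 3 and 5), with DESeq2 1.42.0 as an alternative. Each SE given with that test is the size of the log2 difference over the square root of F, not a fitted standard error. The intervals and the edgeR test were tried on simulated data, and DESeq2 was not. P-values of the day 0 test rest on how knockdown effects changed from day 3 to day 5, since the labels name no separate cultures. They include no spread between day 0 cultures. Gene lists (41), members and the 3′ UTR word were chosen with earlier results of these data known. Genes were named by a fixed rule: the 2 targets and chosen cell cycle and muscle genes, the 12 with the interval bound farthest from no difference each way without ribosomal protein genes and pseudogenes, up to 6 list members at 2-fold and up to 5 genes called by the test each way. The 20 genes each way that share under 20% of their words, and other genes named, were chosen after their values were seen. Alternatives were other scalings, read minimums, fold thresholds and gene classes, no low-count filter, DESeq2 and leaving out each library.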

Additional observations from a re-analysis of the deposited data

Results flagged for a closer look

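The effect of a knockdown at day 0 differed from its effect at days 3 and 5 for 10 gene and knockdown pairs (edgeR's quasi-likelihood test of the difference, adjusted over 13372 genes). In the Fkbp5 knockdown the log2 differences were 4.58 for Ppia (adjusted p = 0.0217), 7.39 for Rpl31-ps14 (0.0217), −7.13 for Rps27a-ps2 (0.0217), −9.58 for Gm13622 (0.0217) and −8.83 for Gm10123 (0.0267). In the Fkbp4 knockdown they were 7.30 for Gm5786 (adjusted p = 0.000475), −11.12 for Gm13622 (0.00732), −9.76 for Gm4342 (0.0153), −3.66 for Gm16570 (0.0153) and 1.75 for Gm10136 (0.0435). Apart from Ppia these are processed pseudogenes, and the 9 different genes share 20.9% or more of their words with others. For Rpl31-ps14, 498 reads in the Fkbp5 knockdown and 3 in the control at day 0 stood beside 239 to 433 reads in each of the 6 later libraries. For Gm10123 the day 0 reads were 4 in the Fkbp5 knockdown, 2480 in the Fkbp4 knockdown and 1787 in the control, against 1 to 7 in the later libraries. With 1 library left out at a time, Rps27a-ps2 and Gm10123 were called in 5 of 7 fits and Gm10136 in 6 of 7. The remaining calls were made in 7 of 7. The part of shared sequence in these 10 calls was not tested.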

How the results depend on the processing

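No paired analysis was possible because each genotype and day has 1 library and the labels carry no replicate numbers. Counts at 2-fold are given in the order Fkbp5 higher, Fkbp5 lower, Fkbp4 higher, Fkbp4 lower, and were 65, 103, 62 and 62. With a minimum of 20 reads they were 133, 169, 135 and 138; with 100 reads, 37, 65, 44 and 40; with no minimum, 2374, 1953, 2033 and 2317. At 1.5-fold they were 294, 403, 233 and 255, and at 3-fold 17, 37, 24 and 34. Protein-coding nuclear genes gave 41 for Fkbp5 higher and 40 and 40 for Fkbp4, and genes sharing under 20% of their words, chosen after seeing the data, 30, 64, 32 and 24. The other alternatives kept these counts within 1.5 times. The day 0 test called 5 genes in each knockdown, but 107 (Fkbp5) and 95 (Fkbp4) without a low-count filter and 10 in the Fkbp4 knockdown with the DESeq2 Wald test (6 in the Fkbp5 knockdown). Leaving out 1 library at a time gave 5 to 25 calls in the Fkbp5 knockdown and 7 to 29 in the Fkbp4 knockdown: 25 and 25 without Fkbp4 knockdown day 3, 25 and 27 without Fkbp4 knockdown day 5, 21 and 29 without Fkbp5 knockdown day 3, 14 and 29 without Fkbp5 knockdown day 5, 18 and 26 without control day 3, and 13 without control day 5 in the Fkbp5 knockdown. The test cannot be made without the control day 0 library or the knockdown's own. Of 2841 ratios of named genes recomputed with other scalings, 0 called values changed sign and 25 moved past their counting interval; 5 of the called values fell under 2-fold with library totals and 1 with DESeq2 size factors. The targets' ratios kept their size. The median of all genes was −0.07 and 0.08 with library totals, and DESeq2 size factors gave 0.00 and 0.03. The causes of these changes were not tested. A difference of 1 library from another cannot be parted from the spread between cultures at any depth.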

Other observations

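These 3 values at day 0 concern genes outside the groups above and were picked after their values were seen. Mrps33, a mitochondrial ribosome protein gene that shares 15.6% of its words, had 306 reads in the Fkbp5 knockdown, 393 in the Fkbp4 knockdown and 136 in the control, but Fkbp4 ratios of −1.35 and −0.10 at days 3 and 5. Slco4a1, an organic anion transporter, had 12, 30 and 55 reads, and Fkbp5 ratios of −1.95, 1.53 and 1.44 at days 0, 3 and 5. The heat shock gene Hspa1b, which shares 68.1% of its words, had 149, 94 and 239 reads, an Fkbp4 ratio of −1.49 (−1.85 to −1.14).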
